A study of Mus musculus with 50 samples.

Results

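The expression of chromosome 11 genes was compared between 2 NSD1-/- lines of J1 mouse embryonic stem (ES) cells, labelled KO1 and KO2, and wild type J1 cells. J1 is an ES cell line of the strain 129S4/SvJae. KO1 and KO2 carry the genotype NSD1-/-, and all 3 groups were untreated and were grown in the same serum and LIF medium on gelatin, without a named feeder layer. Each group has 2 RNA libraries of total RNA, and the labels leave out how either line was made, whether it is a single clone and whether replicate libraries are from separate cultures. The p-values below therefore reflect the spread of these replicates, whether biological or technical.

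The genes described, called members here, were chosen by their position on chromosome 11 and by a sum of at least 60 counts over the 6 libraries. They were 493 of the 2953 annotated genes of the chromosome, and 493 of the 4399 genes that reached 60 counts on all chromosomes. All 493 were among the 5034 genes tested in the whole table. The first member started at base 3025907 and the last ended at base 121534467 of chromosome 11 in the mm9 build. The chromosome was singled out with its level in KO2 already known, so the shift of the chromosome as a whole is given as a description and carries no test. Single genes were tested in the fit of all genes.

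Mouse chromosome 11 is rich in genes and carries Grb10, the imprinted Zrsr1 inside Commd1, the Hoxb cluster, Trp53 and type I collagen Col1a1. NSD1 is a methyltransferase that places H3K36me2, a mark of broad intergenic and genic domains, and is encoded on another chromosome. Mouse ES cell lines are known to gain whole chromosomes in culture, chromosome 11 among them. The tables hold no measure of DNA copy number, and its part in the results was not tested. In bulk RNA, a change in the share of cells that express a gene cannot be told apart from a change in RNA per cell.

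Depth was alike in the 6 libraries, with 1150089 to 1285487 counts each, of which 32.3% to 37.2% fell on the single locus AY036118. The median member held 26 to 34 counts per library. The 8 ES cell markers Pou5f1, Sox2, Nanog, Zfp42, Klf4, Esrrb, Dppa5a and Tdgf1 were all detected and summed to 328 to 335 counts in KO1, 332 to 333 in KO2 and 309 to 336 in wild type. Klf4, with 133 to 174 counts per library, and Sox2, with 66 to 100, made up most of these sums. Nanog had 1 to 14 counts and Tdgf1 1 to 4. These markers were counted on their own strand, so the sums do not compare the ES cell state of the groups. Nsd1 had 55 and 38 counts in KO1 and 27 and 21 counts in KO2, against 21 and 25 counts in wild type. The labels leave out which part of Nsd1 was deleted and the counts are taken below to come from the opposite strand, so they do not check the genotype.

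The fragments were taken to come from transcripts that run opposite to the gene they were counted for. Rpl23a, a ribosomal protein gene, had 23.4 and 33.5 CPM in KO1 and 40.1 and 37.9 CPM in KO2, against 28.9 and 28.1 CPM in wild type, counted on its own strand. Tlcd1, which overlaps Rpl23a on the other strand, had 9202 and 9808 CPM in KO1 and 15758 and 15259.9 CPM in KO2, against 11733 and 10754 CPM in wild type, and was the most abundant member. The strandedness of the library kit is not given in the labels. Values are therefore given for the counted gene, together with the gene opposite it. That is the gene on the other strand that shares the most exon bases in total, and at least 50. Of the 493 members, 251 had such a gene opposite and held 89.4% of all member counts. For the other 242 the tables do not tell which transcript the fragments came from. CPM are counts scaled to the effective library size.

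The stretches of exon shared by a counted gene and the gene opposite are where the same fragments could belong to either. The counts are per gene, so where the fragments fell is not known. The following coding exons are those of Col1a1 (type I collagen), Suz12 (a Polycomb subunit), Zrsr1 (an imprinted splicing factor gene) and Axin2 (a negative regulator of Wnt signalling). They were read from mm9 on the strand of the named gene, with the bases shared with the counted gene on the other strand in capitals.
Col1a1, opposite Gm17329, plus strand (chr11:94810495-94810548): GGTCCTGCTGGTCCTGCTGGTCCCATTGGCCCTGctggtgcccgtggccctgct
Col1a1, opposite Gm17329, plus strand (chr11:94811411-94811518): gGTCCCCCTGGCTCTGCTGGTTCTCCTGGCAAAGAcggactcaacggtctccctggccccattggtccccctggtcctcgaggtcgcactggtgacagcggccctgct
Col1a1, opposite Gm17329, plus strand (chr11:94811605-94811645): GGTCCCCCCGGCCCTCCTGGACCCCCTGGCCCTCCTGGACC
Suz12, opposite Gm16706, plus strand (chr11:79835594-79835771): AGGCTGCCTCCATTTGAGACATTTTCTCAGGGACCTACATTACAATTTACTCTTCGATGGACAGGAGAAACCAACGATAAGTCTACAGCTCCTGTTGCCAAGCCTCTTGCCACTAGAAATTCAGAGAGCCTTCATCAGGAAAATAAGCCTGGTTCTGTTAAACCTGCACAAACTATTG
Zrsr1, opposite Commd1, plus strand (chr11:22873900-22874102): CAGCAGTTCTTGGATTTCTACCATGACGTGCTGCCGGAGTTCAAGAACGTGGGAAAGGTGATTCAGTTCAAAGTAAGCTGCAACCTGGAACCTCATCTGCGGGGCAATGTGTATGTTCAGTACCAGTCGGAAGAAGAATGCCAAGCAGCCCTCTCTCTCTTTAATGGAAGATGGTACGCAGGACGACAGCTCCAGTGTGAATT
Axin2, opposite Gm11670, plus strand (chr11:108803217-108803357): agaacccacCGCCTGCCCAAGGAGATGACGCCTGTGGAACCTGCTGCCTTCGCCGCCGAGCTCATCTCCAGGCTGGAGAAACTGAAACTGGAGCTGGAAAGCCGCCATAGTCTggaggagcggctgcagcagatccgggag
Gm17329 shared 3 such stretches of 34, 34 and 41 bases with Col1a1, which are 109 of its 141 exon bases. Gm16706 shared 178 of its 3579 exon bases with Suz12, and Commd1 shared 203 of 8388 with Zrsr1. Gm11670 shared 104 bases with the Axin2 exon shown, and 209 of its 511 exon bases with Axin2 in all.

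Grb10 is an imprinted gene that encodes an adaptor of the insulin and IGF receptors, it had no annotated exon opposite, and its counts were high in both lines. The RefSeq promoter table (build GRCm38.p6) holds 2 start sites for it. The 250 bases before each are shown on the minus strand, the strand of Grb10, with each CG dinucleotide in capitals.
Grb10, upstream start (chr11:12037421-12037670): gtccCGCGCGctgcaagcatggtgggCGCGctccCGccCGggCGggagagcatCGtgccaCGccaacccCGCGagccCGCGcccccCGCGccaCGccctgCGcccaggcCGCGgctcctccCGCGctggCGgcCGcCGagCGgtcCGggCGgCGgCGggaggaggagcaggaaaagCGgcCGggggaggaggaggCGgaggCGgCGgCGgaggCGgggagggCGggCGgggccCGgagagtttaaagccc
Grb10, downstream start (chr11:12027972-12028221): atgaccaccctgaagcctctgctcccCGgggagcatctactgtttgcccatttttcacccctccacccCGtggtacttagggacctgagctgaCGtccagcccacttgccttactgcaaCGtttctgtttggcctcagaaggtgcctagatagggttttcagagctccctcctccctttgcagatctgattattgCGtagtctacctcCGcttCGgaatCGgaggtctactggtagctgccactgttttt
The upstream window held 40 CG dinucleotides, a number reached by 1.31% of the 32851 promoters in the table, and the downstream window held 8, reached by 43% of them. A CG dinucleotide reads the same on both strands, so each was counted once. The counts per gene do not tell which start was used, or whether the fragments counted for Grb10 came from its own transcripts.

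Chromosome 11 stood above the other chromosomes in KO2 and not in KO1. The median log2 fold change of the 493 members was 0.05 in KO1, which is 1.03-fold, and 0.40 in KO2, which is 1.32-fold, each against wild type. Over the 3902 tested genes of the other chromosomes with at least 60 counts the medians were -0.02 in KO1 and -0.06 in KO2. Among the 19 other chromosomes, 1 to 19 and X, the medians in KO2 lay between -0.13 on chromosome X and 0.03 on chromosome 13. In KO1 they lay between -0.42 on chromosome 6 and 0.06 on chromosome 1, with -0.10 on chromosome 14 the next lowest. The 16 mitochondrial genes, which are not among these, had medians of 0.30 in KO1 and 0.36 in KO2. The 25th and 75th percentiles of the members in KO2 were 0.18 and 0.63, and the 10th and 90th were -0.10 and 0.88. In KO1 the 10th and 90th percentiles were -0.39 and 0.60. In all, 270 members were above 0 in KO1 and 423 in KO2.

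**Figure D1:**
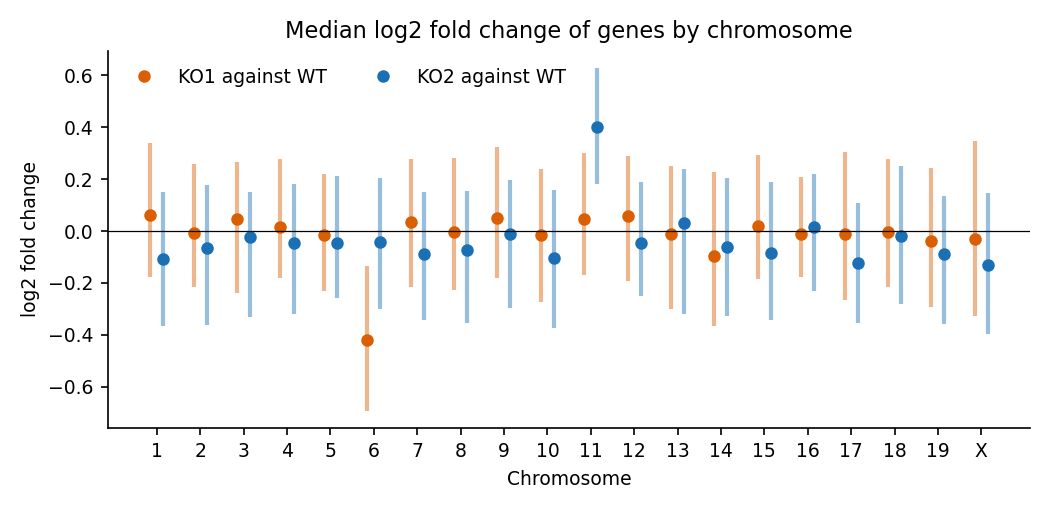
Median log2 fold change of genes with at least 60 counts by chromosome, for KO1 against wild type (orange) and KO2 against wild type (blue); points are medians and bars run over the 25th to 75th percentile. Chromosome 11 stands at 0.05 in KO1 and at 0.40 in KO2, and chromosome 6 at -0.42 in KO1.

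The libraries of each group lay close together in this measure. The median over members of log2(CPM + 1) relative to the wild type mean was 0.04 and 0.01 in the KO1 libraries and 0.39 and 0.39 in the KO2 libraries. Both KO2 libraries stood above both KO1 libraries and both wild type libraries. The share of all counts that fell on chromosome 11, with AY036118 left out, was 11.8% and 11.9% in KO1 and 15.0% and 15.2% in KO2, against 11.5% and 11.4% in wild type. That share does not rest on the fit, and the KO2 libraries again did not overlap with those of the other groups.

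**Figure D2:**
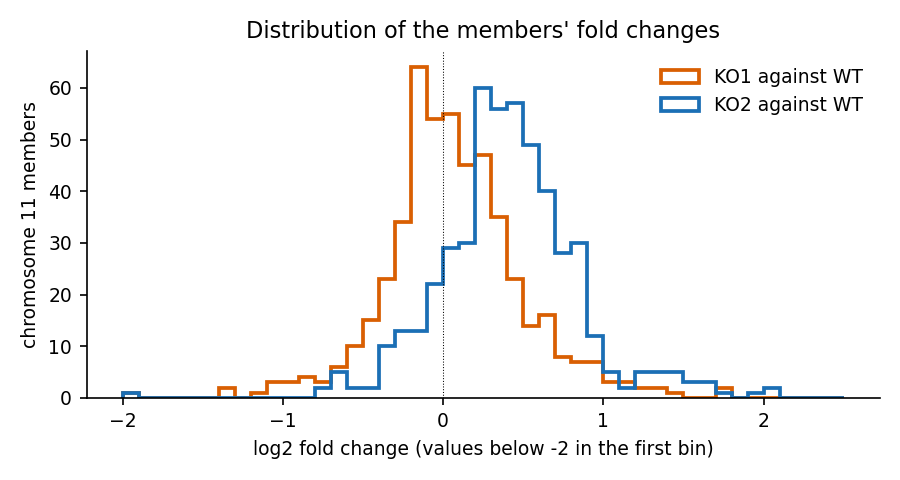
Number of chromosome 11 members by log2 fold change against wild type in bins of 0.1, for KO1 (orange) and KO2 (blue). The KO2 distribution is displaced to the right as a whole, with medians of 0.05 in KO1 and 0.40 in KO2; the first bin holds Gm17329.

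The shift in KO2 ran over the full length of the chromosome. In windows of 10 Mb, the median of the members in KO2 was between 0.21 and 0.56 in all 13 windows. In the 11 windows with at least 10 members it was between 0.33 and 0.56. In KO1 the same 11 windows had medians between 0.01 and 0.26, and the lowest of all 13 was -0.12, in a window of 8 members. A running median of 41 members stayed between -0.09 and 0.18 in KO1 and between 0.26 and 0.51 in KO2. The window nearest the start of the chromosome, with 32 members, had a median of 0.11 in KO1 and 0.51 in KO2, and that at its end, with 33 members, had 0.10 in KO1 and 0.52 in KO2. The window medians of the KO2 libraries differed most between replicates in the fifth window, with 0.73 and 0.27 over 12 members.

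**Figure D3:**
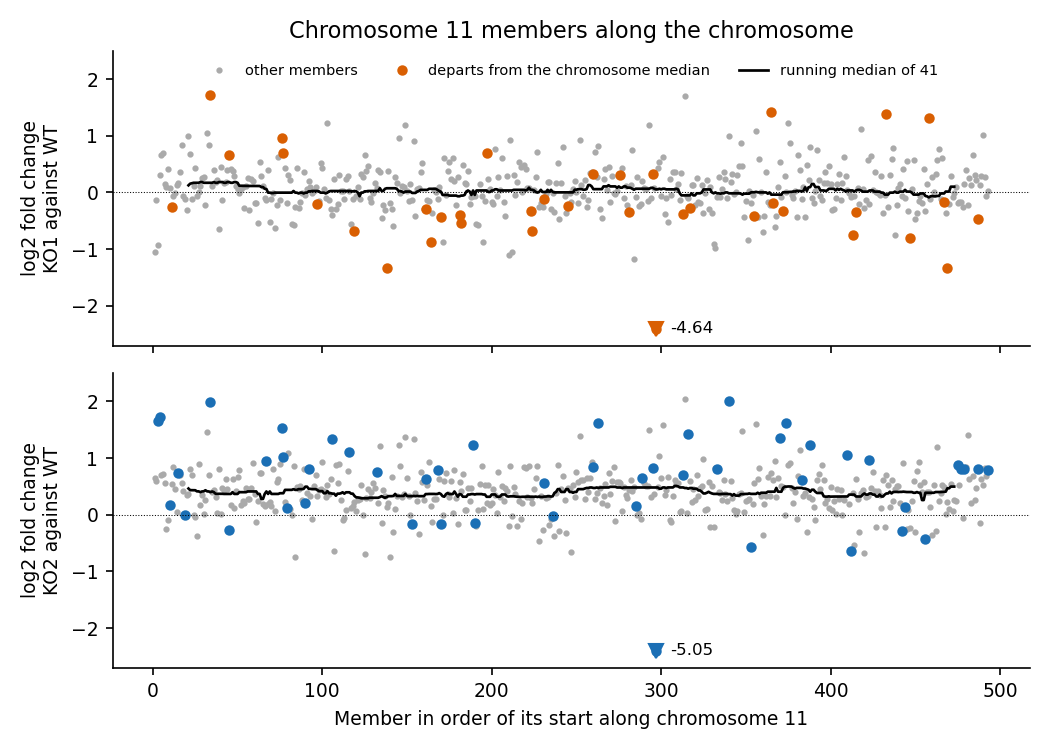
Log2 fold change against wild type of the 493 members in order of their start along chromosome 11, for KO1 (upper panel) and KO2 (lower panel); coloured points are members that depart from the chromosome median, the black line is the running median of 41 members, and the triangle is Gm17329. The running median stays between -0.09 and 0.18 in KO1 and between 0.26 and 0.51 in KO2.

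**Figure D4:**
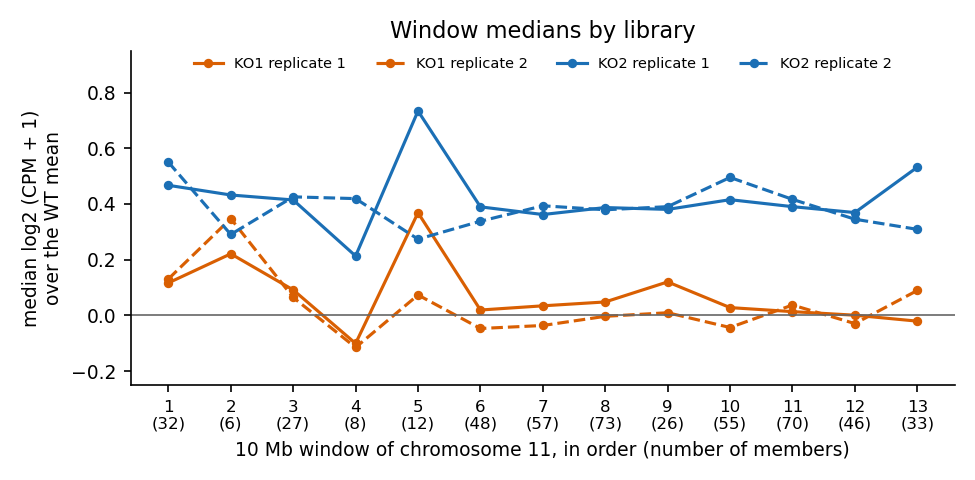
Median over members of log2(CPM + 1) relative to the wild type mean in each of the 13 windows of 10 Mb, for the KO1 libraries (orange) and the KO2 libraries (blue), with the number of members under each window. The fifth window, with 12 members, is where the KO2 replicates lie farthest apart, at 0.73 and 0.27.

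A member was called different where the Benjamini-Hochberg adjusted p of the quasi-likelihood test of edgeR was under 0.05 over all 5034 genes. In KO2, 120 members were called higher and 2 lower than wild type, where 5.01% and 3.97% of all tested genes were called. In KO1, 13 members were called higher and 23 lower, where 3.46% and 6.34% of all tested genes were called. Since the chromosome was chosen with the KO2 shift known, these counts are a description. Of the 3902 tested genes of other chromosomes with at least 60 counts, 3.15% were called higher and 4.84% lower in KO2. Both KO2 libraries stood above both wild type libraries for 308 members, 62.5% of them, against 24.6% of all tested genes, and below for 22 members, against 26% of all tested genes. Both KO1 libraries stood above both wild type libraries for 124 members and below for 111, where 24.7% and 26.4% of all tested genes did. Between the lines, 3 members were called higher and 132 lower in KO1 than in KO2, where 7.93% and 11.4% of all tested genes were called, and the median of the members was -0.33. In place of the 36 members called in KO1, 19 were called without KO1 replicate 1, 17 without KO1 replicate 2, 22 without wild type replicate 1 and 20 without wild type replicate 2. With DESeq2, another test for counts, 16 members were called in KO1 in place of 36, 77 in KO2 in place of 122, and 89 between the lines in place of 135. Some called members reached 60 counts only through the group where they were high, which were 2 in KO1, 6 in KO2 and 8 between the lines, and their direction is in part set by that limit.

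The number of calls in KO2 followed the counts of the members, while the median did not. The 164 members with the most counts, 323 or more, had a median of 0.44 in KO2, and 57.3% of them were called higher. The 165 members with the fewest counts, 60 to 109, had a median of 0.39, and 6.06% were called higher. Members with an exon opposite had a median of -0.01 in KO1 and 0.44 in KO2, and those with none had 0.12 in KO1 and 0.37 in KO2. Members on the plus strand had a median of 0.42 in KO2, and those on the minus strand 0.38. In 69 pairs both members lay opposite each other, and in 52 of these, or 75.4%, both were above 0 in KO2. Of all members, 85.8% were above 0 in KO2, so most pairs drawn from the members at random would be too. The count therefore does not show that opposite genes change together.

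The 10 most abundant members, which held 47.8% of all member counts, were all called higher in KO2, by 0.14 to 0.85 on the log2 scale. In KO1, 1 of them was called higher and 4 were called lower. Of the 164 members with the most counts, 57.3% were called higher in KO2, and in KO1 9 were called higher and 19 lower. Of all tested genes, 5.01% were called higher in KO2, and 3.46% higher and 6.34% lower in KO1. Tlcd1, opposite Rpl23a, changed by -0.24 ± 0.04 in KO1 (adjusted p = 0.000323) and by 0.46 ± 0.04 in KO2 (adjusted p = 5.48e-09), so its values given above did not overlap between any groups. Srr, opposite the ribosome assembly factor gene Tsr1, had 1985 and 1943 CPM in KO1 and 3004 and 3025 CPM in KO2, against 2497 and 2418 CPM in wild type. It too was lowest in KO1 and highest in KO2, with log2 fold changes of -0.32 ± 0.05 in KO1 (adjusted p = 2.32e-05) and 0.29 ± 0.05 in KO2 (adjusted p = 5.97e-05). 4930556J24Rik, opposite Pes1, which is needed to make the large ribosomal subunit, had 813 and 844 CPM in KO1 and 1461 and 1451 CPM in KO2, against 987 and 1001 CPM in wild type. Gm16755, opposite the mitochondrial ribosomal protein gene Mrpl12, had 1286 and 1289 CPM in KO1 and 2063 and 2029 CPM in KO2, against 1407 and 1492 CPM in wild type. Both were called lower in KO1 and higher in KO2. Tested with edgeR in KO1 against the chromosome median in place of 0, Gm16755 stood at -0.22 (adjusted p = 0.00796). That adjusted p was 0.0672 with DESeq2 and 0.0753 against the running median of 41 members. Without KO1 replicate 1 its value was -0.18, and that of 4930556J24Rik was -0.25 in place of -0.31. Gm11583, opposite the nuclear import receptor gene Kpnb1, had 3604 and 3587 CPM in KO1 and 4300.2 and 4695 CPM in KO2, against 3406 and 3134 CPM in wild type, and its log2 fold change of 0.46 ± 0.05 in KO2 was close to the chromosome median. Gm17178, opposite Aspscr1, had 1315 and 1206 CPM in KO1 and 2009 and 1944 CPM in KO2, against 1173 and 1088 CPM in wild type. It was called higher in KO2, by 0.81 ± 0.06 (adjusted p = 1.57e-11), and in KO1 its adjusted p was 0.0883. Agxt2l2, opposite the RNA-binding protein gene Hnrnpab, and Mfsd11, opposite the splicing factor gene Srsf2, were the smallest rises of the 10 in KO2, at 0.21 ± 0.04 and 0.14 ± 0.04.

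A departure is the log2 fold change of a gene minus the median of its chromosome, tested in the same fit with that median as the null. In KO2, 34 members departed upward and 16 downward, which are 6.9% and 3.25% of the members, where 4.15% and 2.9% of all tested genes departed from the median of their own chromosome. In KO1, 11 members departed upward and 26 downward, which are 2.23% and 5.27% of the members, where 3.36% and 5.66% of all tested genes did. Without single libraries, the members departing in KO1 numbered 17 (KO1 replicate 1), 18 (KO1 replicate 2), 21 (wild type replicate 1) and 23 (wild type replicate 2) in place of 37. Those in KO2 numbered 27 without wild type replicate 1 and 32 without wild type replicate 2, in place of 50. With DESeq2, which gave no adjusted p for some members, 19 members departed in KO1 and 25 in KO2. In KO2 the upward departures ranged from 0.15 to 1.60 and the downward ones from -0.19 to -5.44, and 6 of the 16 downward ones still had a log2 fold change above 0. Between the lines, the null was the median of KO1 against wild type minus that of KO2 against wild type. Against it, 30 members departed upward and 59 downward in KO1 relative to KO2, where 7.05% and 11.2% of all tested genes did. Of the departing members, 32 of 37 in KO1 and 44 of 50 in KO2 had an exon opposite, as did 251 of all 493 members. Members with an exon opposite had a median of 327 summed counts, and those without had 113.5. In all, 75 members departed in at least 1 line and 12 in both. The share of all tested genes that departed in both lines was not counted. Both lines were compared with the same wild type libraries, so a deviation there moves both departures of a gene the same way.

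Of the 12 that departed in both lines, 5 were higher in both. Grb10 (chr11:11830511-11938686) had 49.3 and 77.1 CPM in KO1 and 67.7 and 82.4 CPM in KO2, against 15.7 and 22.1 CPM in wild type, so that all 4 knockout libraries stood above both wild type libraries. Its departure was 1.68 ± 0.26 in KO1 (adjusted p = 5.28e-05) and 1.58 ± 0.26 in KO2 (adjusted p = 0.00011). Its neighbours Ddc and Cobl, which belong to the same imprinted region, had log2 fold changes of 0.84 and 0.12 in KO1 and 0.70 and 0.40 in KO2, and neither departed in either line. Ddc encodes the decarboxylase that makes dopamine and serotonin.

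Gm16033 (chr11:45957285-45960618) and Gm16034 both lie opposite Adam19, which encodes a membrane metalloproteinase, and so may count fragments of the same transcripts. Gm16033 had 315 and 281 CPM in KO1 and 428 and 454 CPM in KO2, against 154 and 150.5 CPM in wild type. Its departure was 0.92 ± 0.10 in KO1 (adjusted p = 1.74e-07) and 1.13 ± 0.10 in KO2 (adjusted p = 2.43e-09), with no overlap between the groups. Gm16034 had 78.4 and 98.9 CPM in KO1 and 121 and 101 CPM in KO2, against 55.1 and 54.4 CPM in wild type, and its departures were 0.65 in KO1 (adjusted p = 0.0162) and 0.62 in KO2 (adjusted p = 0.0235).The adjusted p of Gm16034 in KO1 was 0.0798 to 0.24 without any one wild type library, or without KO1 replicate 2 and 0.133 with DESeq2. In KO2 it was 0.133 to 0.181 without any one wild type library, or without KO2 replicate 1 and 0.152 with DESeq2.

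Gm16706 (chr11:79830856-79843370), a long non-coding gene opposite the Polycomb gene Suz12, had 1568 and 1540.1 CPM in KO1 and 2156 and 2305 CPM in KO2, against 1278 and 1197 CPM in wild type. Its departure was 0.28 ± 0.06 in KO1 (adjusted p = 0.000818) and 0.45 ± 0.05 in KO2 (adjusted p = 1.07e-06). Suz12 encodes a subunit of PRC2, the complex that places H3K27me3, and the shared exon is the Suz12 sequence shown above. The order of the groups was KO2, KO1 and wild type from highest to lowest. Eme1 lies opposite Lrrc59, which encodes a ribosome-binding protein of the endoplasmic reticulum. Mrpl27 also shares exon with Eme1 on the other strand, so Eme1 may count fragments of either. Eme1 had 762 and 795 CPM in KO1 and 1019.6 and 1197 CPM in KO2, against 647 and 601 CPM in wild type. Its departure was 0.27 ± 0.07 in KO1 (adjusted p = 0.0143) and 0.43 ± 0.07 in KO2 (adjusted p = 0.000151). The adjusted p in KO1 was 0.0513 to 0.175 without any one KO1 library, or without wild type replicate 2 and 0.108 with DESeq2.

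**Figure D5:**
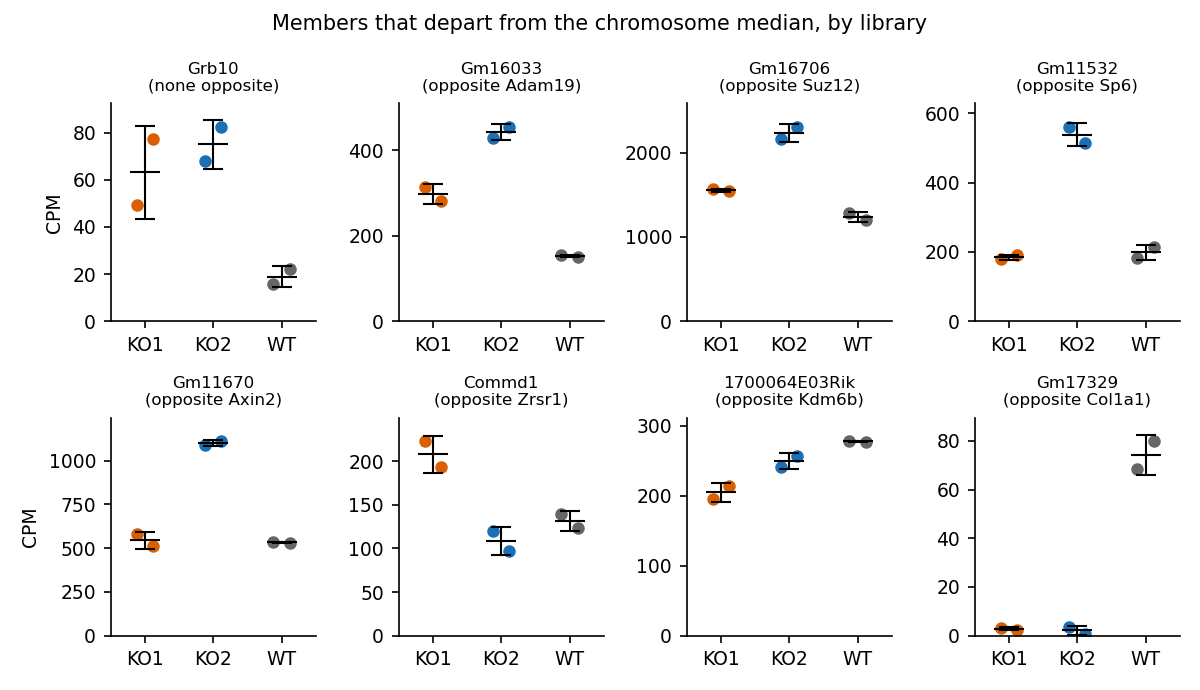
CPM in each library of 8 members that depart from the chromosome median in at least 1 line, with KO1, KO2 and wild type from left to right; points are libraries, and black marks are means with their SD (n = 2). Grb10 and Gm16033 are high in both lines, Gm11532 and Gm11670 in KO2, Commd1 in KO1, and Gm17329 is near 0 in both lines.

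The 2 members below the chromosome median in both lines were Gm17329 and 1700064E03Rik. Gm17329 (chr11:94810494-94811645), opposite Col1a1, had 3.23 and 2.52 CPM in KO1 and 3.56 and 0.824 CPM in KO2, against 68.2 and 79.9 CPM in wild type. It fell by 4.64 on the log2 scale in KO1 and fell by 5.05 in KO2, and it was the largest fall among the members in each line. It reached 60 counts only through the wild type libraries, where it was high, so its fall is given with no test. In counts, it had 4 and 3 in KO1 and 4 and 1 in KO2, against 78 and 94 in wild type. Col1a1 counted on its own strand had 0 to 2 counts in every library. Col1a1 is also a marker of fibroblasts, and of the other fibroblast markers Syn3, opposite Timp3 on another chromosome, had 16 and 19 counts in KO1 and 9 and 15 in KO2, against 75 and 97 in wild type. Apol7d, opposite Fn1, had 1483 and 1528 counts in KO1 and 1311 and 1468 in KO2, against 1338 and 1402 in wild type. Col1a2, Col3a1 and Thy1 were at 0 in all 6 libraries when counted on their own strand. The list of 7 counted that way summed to 91 to 100 in KO1 and 79 to 87 in KO2, against 71 to 78 in wild type. Fragments were taken above to come from the other strand, so these own-strand counts do not compare fibroblast RNA between the groups. Whether cells of another type contributed to the Gm17329 counts in wild type was not tested.

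1700064E03Rik (chr11:69215015-69216202), opposite Kdm6b, had 196 and 215 CPM in KO1 and 242 and 257 CPM in KO2, against 278 and 277 CPM in wild type. Its departure was -0.48 ± 0.10 in KO1 (adjusted p = 0.0011) and -0.56 ± 0.10 in KO2 (adjusted p = 0.000221). Against wild type itself it was called lower in KO1, at a log2 fold change of -0.44 ± 0.10 (adjusted p = 0.00263), and in KO2 its log2 fold change was -0.15 ± 0.10 (adjusted p = 0.364). The adjusted p of its departure in KO1 was 0.081 without KO1 replicate 1.

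Of the other members that departed in both lines, 5 departed in opposite directions, of which 4 are described here. Commd1 (chr11:22734744-22882382) has Zrsr1 opposite, a paternally expressed gene that lies inside Commd1. It had 223 and 193 CPM in KO1 and 120.3 and 97.3 CPM in KO2, against 139 and 123 CPM in wild type, so that KO1 was highest. Its departure was 0.62 ± 0.12 in KO1 (adjusted p = 0.00104) and -0.68 ± 0.14 in KO2 (adjusted p = 0.0021), although against wild type itself its log2 fold change in KO2 was -0.27 ± 0.14 (adjusted p = 0.26). The adjusted p of the KO2 departure was 0.0587 without wild type replicate 1. Zrsr1 counted on its own strand had 22.6 and 18.4 CPM in KO1 and 25.8 and 24.7 CPM in KO2, against 18.4 and 19.6 CPM in wild type, and it did not depart in either line.

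Csnk1d, opposite the lactate exporter gene Slc16a3, had 264 and 319 CPM in KO1 and 761 and 650.5 CPM in KO2, against 374 and 431 CPM in wild type, with departures of -0.51 in KO1 (adjusted p = 0.000581) and 0.40 in KO2 (adjusted p = 0.00337). The adjusted p of Csnk1d was 0.117 without KO1 replicate 1 for KO1, and 0.0802 without KO2 replicate 1 and 0.121 without wild type replicate 1 for KO2. Slc25a35, opposite Rangrf, had 726 and 729 CPM in KO1 and 1362 and 1380.1 CPM in KO2, against 871 and 901 CPM in wild type. It was lowest in KO1 and highest in KO2, with departures of -0.33 in KO1 (adjusted p = 0.000363) and 0.23 in KO2 (adjusted p = 0.0124, and 0.104 without KO2 replicate 2, 0.111 without wild type replicate 1 and 0.104 with DESeq2). Fam57a, opposite Glod4, had 2374 and 2454 CPM in KO1 and 3832 and 3815 CPM in KO2, against 2572 and 2626 CPM in wild type, with departures of -0.15 in KO1 (adjusted p = 0.0387) and 0.15 in KO2 (adjusted p = 0.0402). The Fam57a departure in KO1 had an adjusted p of 0.104 to 0.449 without any one KO1 or wild type library, 0.179 with DESeq2, 0.239 with no filter on low counts and 0.139 against the running median. In KO2 it was 0.0575 to 0.189 without any one KO1, KO2 or wild type library, 0.174 with DESeq2 and 0.243 with no filter on low counts.

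Among members that departed upward in KO2 and not in KO1, Gm11670, Nprl3, Gm11532 and Dvl2 held the most counts of those whose departure was over 0.5. Gm11532 (chr11:96881822-96887562), a long non-coding gene opposite the transcription factor gene Sp6, had 180.3 and 190.3 CPM in KO1 and 561 and 514 CPM in KO2, against 183 and 214 CPM in wild type. It departed by 1.03 ± 0.09 in KO2 (adjusted p = 5.19e-09), and in KO1 its value was -0.15 ± 0.11 (adjusted p = 0.471). Gm11670 (chr11:108800624-108803329), opposite Axin2, had 579.7 and 512 CPM in KO1 and 1088 and 1113 CPM in KO2, against 535 and 531 CPM in wild type. It departed by 0.64 ± 0.07 in KO2 (adjusted p = 6.62e-08), and in KO1 its value was -0.01 ± 0.07 (adjusted p = 0.963). For both genes KO1 and wild type overlapped, while both KO2 libraries stood above them. The difference between the lines in Gm11670 was -1.01 ± 0.07 for KO1 minus KO2 (adjusted p = 1.41e-12), and in Gm11532 it was -1.53 ± 0.09 (adjusted p = 2.84e-13). Nprl3, opposite the DNA repair glycosylase gene Mpg, had 268 and 280.0 CPM in KO1 and 594 and 566 CPM in KO2, against 291 and 312 CPM in wild type, with a departure of 0.54 in KO2 (adjusted p = 2.9e-05).

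Dvl2 and Acadvl are a pair of members that lie opposite each other and share 1151 bases of exon. Dvl2, a transducer of Wnt signals, had 136 and 130.0 CPM in KO1 and 345 and 311 CPM in KO2, against 149 and 130.1 CPM in wild type, when counted on its own strand. Acadvl, which encodes a mitochondrial enzyme of fatty acid oxidation, had 252 and 216 CPM in KO1 and 211 and 227 CPM in KO2, against 241 and 247 CPM in wild type. Dvl2 departed upward in KO2, by 0.83 ± 0.11 (adjusted p = 3.48e-06), and Acadvl departed downward in KO2, by -0.55 ± 0.10 (adjusted p = 0.000601), so the pair departed in opposite directions. Neither departed in KO1.

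Other upward departures in KO2 were at lower counts. Gm11206, opposite Adap2, had 55.3 and 69.3 CPM in KO2, against 17.5 and 23 CPM in wild type, and its departure of 1.22 had an adjusted p of 0.00115, and 0.0526 without wild type replicate 1. Gm12735 had 45.5 and 48.6 CPM in KO2, against 17.5 and 11.1 CPM in wild type, with a departure of 1.32 and an adjusted p of 0.00316, and 0.114 without wild type replicate 2. Gm11399, opposite the centrosome gene Sfi1, had 51.7 and 57.7 CPM in KO2, against 15.7 and 18.7 CPM in wild type, with a departure of 1.26 and an adjusted p of 0.00262, and 0.0686 without wild type replicate 1. Gm12224, opposite the acyl-CoA synthetase gene Acsl6, had 57.9 and 70.1 CPM in KO2, against 23.6 and 27.2 CPM in wild type, with a departure of 0.93 and an adjusted p of 0.00845, and 0.0524 to 0.12 without any one wild type library, or without KO2 replicate 2. In each of these 4 both KO2 libraries were above both wild type libraries, as they were for 24.6% of all tested genes. Members named for a departure were picked by it, so an absence of overlap adds no support of its own. Rapgefl1, Gm11586 (opposite Nags) and Gm11626 (opposite Ifi35) had departures of 1.60, 1.21 and 0.95. Rapgefl1 had 16 and 15.7 CPM in KO2, against 2.62 and 5.1 CPM in wild type, and it reached 60 summed counts only through the libraries where it was high, so its departure is given with no test. Gm11586 had 34.8 and 19 CPM in KO2, against 8.75 and 8.5 CPM in wild type, and Gm11626 had 49 and 75.8 CPM in KO2, against 20.1 and 28.9 CPM in wild type, all without overlap. For Gm11586 the adjusted p was 0.0486, and 0.0683 to 0.467 without any one KO1 or wild type library, or without KO2 replicate 1, 0.0648 with no filter on low counts and 0.0736 against the running median. For Gm11626 it was 0.0145, and 0.304 without KO2 replicate 2, 0.22 without wild type replicate 1 and 0.13 with DESeq2.

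Of the 16 members that departed downward in KO2, Amz2 was called lower than wild type itself. Gm17329 was also lower than wild type, and is given above with no test because of the count limit. Amz2, opposite the monocarboxylate transporter gene Slc16a6, had 40.1 and 51.9 CPM in KO2, against 61.2 and 83.3 CPM in wild type, a log2 fold change of -0.65 ± 0.21 (adjusted p = 0.0468) and a departure of -1.05 (adjusted p = 0.00118, and 0.086 without wild type replicate 2). BC046404 had 218 and 211 CPM in KO2, against 237 and 245 CPM in wild type, a log2 fold change of -0.17 ± 0.10 and a departure of -0.57 (adjusted p = 0.000307). Gm17433, a long non-coding gene opposite Tbc1d16, had 85.6 and 97.3 CPM in KO2, against 118 and 129 CPM in wild type, with a departure of -0.84 (adjusted p = 0.00023). Mfsd11, opposite Srsf2, departed by -0.26 (adjusted p = 0.000214). 1110005A03Rik departed by -0.69 (adjusted p = 0.00645, and 0.223 without wild type replicate 1). Dnajc7, opposite Nkiras2, departed by -0.96 (adjusted p = 0.0227, and 0.078 to 0.124 without any one KO2 or wild type library). Abhd15 departed by -0.42 (adjusted p = 0.0197, and 0.163 without KO2 replicate 1, 0.243 without wild type replicate 1, 0.132 with DESeq2 and 0.0659 against the running median). Agxt2l2, opposite Hnrnpab, departed by -0.19 (adjusted p = 0.00591, and 0.0612 without KO2 replicate 1 and 0.0938 without wild type replicate 1).

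In KO1, where the chromosome median was near 0, a departure is close to a plain difference from wild type. Rnf213, a large ubiquitin ligase gene with no exon opposite, had 27.5 and 43.6 CPM in KO1 and 22.3 and 15.7 CPM in KO2, against 13.1 and 15.3 CPM in wild type. Its departure in KO1 was 1.26 ± 0.31 (adjusted p = 0.00666, and 0.187 without KO1 replicate 2, 0.0816 without wild type replicate 1 and 0.0979 with DESeq2). Wnk4, which encodes a kinase of renal salt transport, had 17 and 13.4 CPM in KO1, against 7 and 4.25 CPM in wild type, with a departure of 1.38, given with no test because it reached 60 counts only through the KO1 libraries. 1110017F19Rik had 22.6 and 15.9 CPM in KO1, against 7.87 and 6.8 CPM in wild type, with a departure of 1.34 (adjusted p = 0.0261, and 0.0942 to 0.244 without any one wild type library, or without KO1 replicate 1 and 0.0504 with no filter on low counts). Gp1ba, which encodes a platelet receptor subunit, had 56.6 and 64.6 CPM in KO1, against 37.6 and 36.6 CPM in wild type, with a departure of 0.66 (adjusted p = 0.0346, and 0.0676 to 0.22 without any one KO1 or wild type library, 0.294 with DESeq2 and 0.0776 with no filter on low counts). In each of these 4 both KO1 libraries were above both wild type libraries, as they were for 24.7% of all tested genes. The 4 were picked by their departure, so this adds no support of its own.

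Of the 10 largest downward departures in KO1, Tnk1 and Gm12333 were called whichever library was left out, and Gm17329 is given above with no test. Tnk1, opposite the phospholipid scramblase gene Plscr3, had 139 and 134 CPM in KO1 and 262 and 263 CPM in KO2, against 192 and 202 CPM in wild type. It fell in KO1, with a log2 fold change of -0.53 ± 0.11 (adjusted p = 0.00139), and rose in KO2, with 0.41 ± 0.10 (adjusted p = 0.00698), close to the chromosome median there. Plscr3 counted on its own strand had 146 and 157 CPM in KO1 and 292 and 303 CPM in KO2, against 198 and 201 CPM in wild type, with the same order of the groups. Gm12333, opposite Smg6, an endonuclease of nonsense-mediated decay, had 76.8 and 70.4 CPM in KO1 and 139 and 136 CPM in KO2, against 119.9 and 117 CPM in wild type, and its departure in KO1 was -0.73 ± 0.14 (adjusted p = 0.000818). Gm10434 had 81.7 and 67.9 CPM in KO1, against 122 and 117 CPM in wild type, with a departure of -0.72 (adjusted p = 0.0012, and 0.0502 without KO1 replicate 2). 9330160F10Rik had 50.1 and 61.2 CPM in KO1, against 85.7 and 117 CPM in wild type, with a departure of -0.92 (adjusted p = 0.000661, and 0.0682 without KO1 replicate 1 and 0.0709 without wild type replicate 2). P4hb, which encodes a protein disulfide isomerase, had 8.09 and 7.55 CPM in KO1, against 20.1 and 19.6 CPM in wild type, with a departure of -1.38 (adjusted p = 0.0123, and 0.07 to 0.0995 without any one KO1 or wild type library). Flii, opposite the cell polarity gene Llgl1, had 5.66 and 7.55 CPM in KO1, against 15.7 and 17.9 CPM in wild type, with a departure of -1.39 (adjusted p = 0.0275, and 0.0878 to 0.227 without any one KO1 or wild type library and 0.056 with no filter on low counts). Gm15642, opposite Amz2, departed by -0.80 (adjusted p = 0.0145, and 0.117 to 0.322 without any one KO1 library, or without wild type replicate 1 and 0.126 with DESeq2). Gm11724, opposite Tmc8, departed by -0.84 (adjusted p = 0.0143, and 0.0562 to 0.218 without any one KO1 library, or without wild type replicate 1 and 0.145 with DESeq2).

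The 3 members called higher in KO1 than in KO2 were Commd1, Rnf213 and Zkscan17. Commd1 had 223 and 193 CPM in KO1, against 120.3 and 97.3 CPM in KO2, a log2 difference of 0.94 ± 0.13 (adjusted p = 2.1e-06). Rnf213 differed by 0.91 ± 0.29 (adjusted p = 0.0247, and 0.327 without KO1 replicate 2, 0.205 without KO2 replicate 2 and 0.235 with DESeq2). Zkscan17, a zinc finger gene, had 14.6 and 14.3 CPM in KO1, against 4.46 and 6.6 CPM in KO2, and differed by 1.36 ± 0.45, and it reached 60 counts only through KO1, where it was high. The 5 largest differences among the 132 members called lower in KO1 than in KO2 were those of Gm11399, 1700003D09Rik, Gm12224, Pisd-ps1 and Dynll2, and of these Gm11399 and Gm12224 were called whichever library was left out. Gm11399, opposite Sfi1, had 5.66 and 12.6 CPM in KO1, against 51.7 and 57.7 CPM in KO2, a difference of -2.58 ± 0.30 (adjusted p = 1.31e-07). Gm12224 had 17 and 21.8 CPM in KO1, against 57.9 and 70.1 CPM in KO2, a difference of -1.72 ± 0.23 (adjusted p = 1.76e-06). The other 3 reached 60 counts only through KO2, where they were high, so their differences are given with no test. They were -1.69 ± 0.46 for Pisd-ps1, -1.79 ± 0.52 for 1700003D09Rik, opposite Ppp1r1b, and -1.67 ± 0.53 for Dynll2, which encodes a dynein light chain. 1700003D09Rik had 4.85 and 3.35 CPM in KO1, against 8.91 and 19.8 CPM in KO2. Dynll2 had 4.04 and 5.03 CPM in KO1, against 22.3 and 7.42 CPM in KO2, and Pisd-ps1 had 4.04 and 6.71 CPM in KO1, against 17.8 and 17.3 CPM in KO2.

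Gene lists of known function were counted among the members by their own symbol and by the symbol of the gene opposite. Beside the counts below, 35.5% of all members with an exon opposite and 12.8% of those without were called higher in KO2, as were 57.3% of the third of members with the most counts. In KO1, 9 of the 251 members with an exon opposite were called higher and 22 lower. Of the 242 without, 4 were called higher and 1 lower in KO1. Of the 5 imprinted genes listed on the chromosome, all 5 were members by their own symbol, Grb10 and Commd1 were called higher in KO1, and Grb10 in KO2. Of the 6 Polycomb genes, 2 were members by their own symbol, Suz12 and Pcgf2, and none was called in either line. By the gene opposite, 2 were covered, and Gm16706, opposite Suz12, was called higher in both lines. Of 26 genes of other chromatin regulators and Mediator, 12 were members by their own symbol, with a median of 0.51 in KO2 and none called. By the gene opposite 6 were covered, of which 3 were called higher in KO2, and 1 higher and 1 lower in KO1. 4632419I22Rik, opposite the Mediator kinase module gene Med13, had 675 and 768 CPM in KO1 and 797 and 921 CPM in KO2, against 613 and 552 CPM in wild type, and it was called higher in both lines. Its departure in KO1 was 0.26 (adjusted p = 0.0297, and 0.175 with DESeq2 and 0.0726 against the running median). Without KO1 replicate 2 that departure was 0.17. A030003K02Rik, opposite Phf12, had 183 and 191 CPM in KO1 and 229 and 227 CPM in KO2, against 178 and 155 CPM in wild type, and it was called higher in KO2, as was Pigl, opposite the corepressor gene Ncor1, by 0.65 ± 0.19.

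Of the 9 Wnt pathway genes, 3 were members by their own symbol and 2 by the gene opposite. Dvl2 and Gm11670, opposite Axin2, were called higher in KO2, and no member of the list was called in KO1. Axin2 counted on its own strand had 25 and 19.8 CPM in KO2, against 12.2 and 9.35 CPM in wild type, with an adjusted p of 0.0505. None of the 10 Hoxb genes was a member by either symbol. Of 20 transcription factor genes, 5 were members by their own symbol and 3 by the gene opposite, and only Gm11532, opposite Sp6, was called, higher in KO2. Thra, a thyroid hormone receptor gene, had 86.5 and 88 CPM in KO1 and 114 and 89 CPM in KO2, against 88.4 and 79.9 CPM in wild type. Nr1d1, a nuclear receptor gene of the circadian clock that lies opposite Thra, had 40.4 and 52.8 CPM in KO1 and 55.3 and 56.1 CPM in KO2, against 35.9 and 36.6 CPM in wild type. Of 17 genes of RNA binding and translation, 12 were members by their own symbol, of which 1, Srsf2, was called higher in KO2, and 5 by the gene opposite, of which 4 were called higher in KO2. Those 4 were Agxt2l2, Mfsd11, Gm17536 and Gm11715, the last of which lies opposite Nol11. Of these 5, Agxt2l2, Mfsd11 and Gm11508 departed downward from the chromosome median in KO2, and Gm17536, opposite the spliceosome gene Eftud2, departed upward by 0.22 (adjusted p = 0.0186, and 0.154 without KO2 replicate 2, 0.178 without wild type replicate 2, 0.133 with DESeq2, 0.0681 with no filter on low counts and 0.138 against the running median). Gm11508, opposite the splicing factor gene Srsf1, had 977 and 1029.5 CPM in KO1 and 1186 and 1158 CPM in KO2, against 1006 and 1107 CPM in wild type, with a departure in KO2 of -0.25 (adjusted p = 0.00748, and 0.136 without wild type replicate 2). Of 7 ribosomal protein genes, 2 were members by their own symbol, with none called, and 2 by the gene opposite, of which Tlcd1, opposite Rpl23a, was called. Of 23 genes of the cell cycle and DNA repair, 5 were members by their own symbol, none called, and 2 by the gene opposite. Of these Rffl, opposite the DNA ligase gene Lig3, had 796 and 824 CPM in KO1 and 878 and 855 CPM in KO2, against 709.6 and 666 CPM in wild type, and it was called higher in both lines. Of 19 signalling genes, 3 were members by their own symbol and 3 by the gene opposite, and none was called. Of 18 metabolic genes, 6 were members by their own symbol and 1 by the gene opposite, and 1 was called, P4hb, lower in KO1. Of 15 matrix and adhesion genes, 2 were members by their own symbol, with none called, and 3 lay opposite members, which were 4 because Adam19 lies opposite a pair. Of these 4, the 2 members of the Adam19 pair were called higher in each line. Gm17329 was lower in each line, and is given with no test because of the count limit. The list medians in KO2 ran from 0.066 to 1.04, against 0.40 over all members, and no test was made of a list.

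The 24 members with 60 to 65 counts had a median log2 fold change of 0.20 in KO1 and 0.63 in KO2, and the 29 genes with a fit among the 30 with 55 to 59 counts had 0.08 in KO1 and 0.31 in KO2. Single values there ran down to -0.74 in KO2 inside the limit and up to 2.82 outside it. The limit is on the sum over all libraries, so genes that are high in KO2 reach it more readily.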

How the data were processed

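RNA libraries of KO1, KO2 and wild type J1 cells were analysed, 2 per group, grouped by their labels. The authors deposited raw counts per gene, with no normalization. Per the file headers, paired fragments over exons were counted with featureCounts 2.0.1, strand setting 1, and GENCODE mouse version 1 on mm9. Trim Galore 0.6.4 and STAR 2.5.4b were among the tools in the submitters' processing notes. The strand setting, and reads shared by overlapping genes, could change which gene a value belongs to.

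The analysis used edgeR 4.0.16 (R 4.3.3), with filterByExpr at a minimum count of 10, TMM scaling, a robust quasi-likelihood fit of all 6 libraries, and Benjamini-Hochberg adjustment over 5034 genes. For departures, the offset of each gene held its chromosome's median log2 fold change. Errors of fold changes are the absolute log2 fold change divided by the square root of the F statistic of the quasi-likelihood test. Counting limits the precision of members with few counts. The same-numbered replicates did not deviate together (correlations of -0.04, 0.01 and -0.01), and the replicates of a group differed by more than counting noise (chi-square per degree of freedom of 1.50 to 2.15).

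Members and lists were chosen with earlier results of these data known. Named genes are, per line, the 10 largest departures each way among called members with a mean of at least 5 CPM, the 10 most abundant members, the 5 largest differences each way between the lines, up to 3 members per list, and Grb10. Slc25a35, Nprl3, Plscr3, Gm17536, Gm11715, Srsf2, Pigl, Zrsr1, Axin2 and Ddc were named after their values were seen. DESeq2, filters, scalings, windows, a replicate term and single libraries left out were the alternatives. The 44 samples of chromatin assays were not used here, and a few members and sequences are not reported here.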

Additional observations from a re-analysis of the deposited data

Results flagged for a closer look

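In 4 members described here the departure from the chromosome median had one sign in KO1 and the other in KO2, each called by edgeR's quasi-likelihood test, and the difference between the lines was itself tested in the same fit. The departure in KO1 minus that in KO2 was 1.296 for Commd1 (opposite Zrsr1, adjusted p = 1.25e-08). It was -0.56 for Slc25a35 (opposite Rangrf, adjusted p = 3.44e-08), -0.31 for Fam57a (opposite Glod4, adjusted p = 1.38e-05) and -0.92 for Csnk1d (opposite Slc16a3, adjusted p = 1.49e-08). With DESeq2 the Fam57a departures had adjusted p = 0.179 in KO1 and 0.174 in KO2, and with no filter on low counts 0.239 and 0.243. The Slc25a35 departure in KO2 had adjusted p = 0.104 with DESeq2. Both knockout libraries of one line lay above both of the other line in each of the 4 genes. The 4 were singled out because their signs differ, so these p-values do not come from genes chosen independently of the difference.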

How the results depend on the processing

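The chromosome median, over all members or over those of a count or exon class, was at most 0.13 in KO1 and at least 0.37 in KO2, while windows ran wider. With DESeq2 1.42.0, 16 members were called in KO1, 77 in KO2 and 89 between the lines, 19 and 25 departed in KO1 and KO2, and the KO2 median was 0.42. The KO2 median was 0.41 with no filter and 0.46 with scaling factors computed without chromosomes 11 and 6, where 143 members were called higher and 1 lower. Among members with at least 300 counts the medians were -0.066 in KO1 and 0.44 in KO2, with no exon opposite 0.12 and 0.37, and with an exon opposite -0.0083 and 0.44. Over windows with at least 10 members, the lowest median in windows of 5 Mb was -0.044 in KO1 and 0.28 in KO2. In windows of 20 Mb the highest was 0.14 in KO1, and in KO2 the lowest and highest were 0.37 and 0.52. The cause of these shifts was not tested, beyond the fewer members or libraries that an alternative holds.

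Leaving out each library in turn gave 17 to 42 members called in KO1, 84 to 113 in KO2 and 99 to 132 between the lines. It gave 17 to 43 departing in KO1 and 27 to 44 in KO2, and medians of 0.018 to 0.053 in KO1 and 0.40 to 0.41 in KO2. A lone library left in a group was assumed to vary like the others. With the replicate number as a block, 36, 114 and 132 members were called in KO1, in KO2 and between the lines, and 34 and 45 departed in KO1 and KO2. Of 63 called departures of named genes, 16 were given an adjusted p of at least 0.05 by DESeq2. With no filter 9 were not called, against the running median 7 and with the replicate block 5. DESeq2 gave no adjusted p for further called departures, so more than 16 were not called with it. These were Wnk4, 1110017F19Rik, Flii and P4hb in KO1, and Rapgefl1, Gm12735, Gm11399, Gm11586, Gm12224, Dnajc7 and Gm17329 in KO2. No called result reversed in an alternative that gave it an adjusted p. With 26 to 34 counts for the median member, calls of single genes are limited by depth.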
